A study of Mus musculus with 8 samples.

Results

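A set of 10 receptor genes that let alpha cells sense hormones, transmitters, fatty acids and calcium were examined in alphaTC6 cells, a mouse line of glucagon-producing pancreatic alpha cells. They were chosen by symbol (Gipr, Glp1r, Gcgr, Sstr2, Sstr3, Adra2a, Avpr1b, Ffar1, Ffar4 and Casr). All 10 were found among the 55536 genes of the count table. The cells, labelled as wild type, were reverse transfected with a lipid reagent for 48 h, either with siRNA against Klf4 or with scramble siRNA as the control. Poly(A) RNA was then sequenced in 4 libraries per treatment. The target is a zinc finger transcription factor, and the comparison asked which alpha cell genes depend on it. The labels place 2 scramble and 3 Klf4 siRNA libraries in batch 1, and 2 scramble libraries and 1 Klf4 siRNA library in batch 2, without saying what a batch is. All libraries came from a single cell line, and no label names separate cultures, so p-values measure the spread between these libraries, which may be technical. The labels' extraction text speaks of islets, whereas every library is labelled as this cell line.

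All of these receptors couple to G proteins. Receptors for the incretin GIP, for GLP-1 and for glucagon act mainly through Gs, which raises cyclic AMP. Somatostatin receptors and the alpha-2A adrenergic receptor act through Gi, which lowers it. The vasopressin receptor Avpr1b, the fatty acid receptors Ffar1 and Ffar4 and the calcium-sensing receptor Casr signal largely through Gq and intracellular calcium. In alpha cells somatostatin restrains glucagon release, whereas vasopressin and GIP stimulate it.

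Total counts ran from 45954151 to 64185987 per library. Klf4 itself was at 41.8 ± 5.67 CPM (CPM, from TMM-scaled library sizes; SD, n = 4) in controls and 15.6 ± 4.26 CPM after its siRNA, and the groups did not overlap. Its log2 change was -1.33, with a standard error of 0.17 and an edgeR adjusted p of 0.0083, which became 0.052 when scramble replicate 1 was dropped and 0.104 in batch 1 alone. The log2 change itself was -1.39 in batch 1 alone and ran from -1.46 to -1.24 over 19 alternative fits. The alpha cell label was checked against 8 markers: 7 had at least 10 counts in every library, among them Gcg, Irx1 and Irx2, and Gc had at most 4 counts. Ins1, Ins2 and Pdx1 of beta cells had 0 counts in all 8 libraries, and Sst of delta cells had at most 2. Mafa and Nkx6-1, listed for beta cells, and Rbp4, listed for delta cells, were present, at means of 3.17, 124.7 and 1257 CPM. In these bulk libraries, fewer cells with a transcript and less of it per cell cannot be told apart.

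The promoters of the receptor that changed with treatment and of the receptor that changed with batch are shown first. KLF factors are known to bind CACCC-type words. RefSeq promoter windows (GRCm38.p6, 250 bases before to 50 after a transcript start) matched 8 of the 10 receptors, as 9 windows. The words searched were CACCC and, for a longer form of it, CACACCC, each on both strands, so that every CACACCC also holds a CACCC. At least 1 CACCC or its reverse complement GGGTG was found in 9 of the 9 receptor windows and in 57.5% of all 32851 windows of that length. The median GC content was 63.7% in the receptor windows and 52.7% in all windows, and its part in that count was not tested. CACACCC was found in 1 of the 9, that of Casr, and in 7.95% of all windows. For both genes the part of the window before the start and outside every annotated exon is given 5′ to 3′ on the gene's strand, with CACCC or GGGTG in capitals. The Casr stretch is chr16:36562142-36562384 (minus strand), and the Ffar4 stretch is chr19:38096829-38097070 (plus strand).
Casr: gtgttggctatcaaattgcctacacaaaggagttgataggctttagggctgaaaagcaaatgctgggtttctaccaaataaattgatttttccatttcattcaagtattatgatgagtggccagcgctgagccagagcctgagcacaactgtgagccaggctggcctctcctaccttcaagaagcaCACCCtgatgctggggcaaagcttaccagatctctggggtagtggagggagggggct
Ffar4: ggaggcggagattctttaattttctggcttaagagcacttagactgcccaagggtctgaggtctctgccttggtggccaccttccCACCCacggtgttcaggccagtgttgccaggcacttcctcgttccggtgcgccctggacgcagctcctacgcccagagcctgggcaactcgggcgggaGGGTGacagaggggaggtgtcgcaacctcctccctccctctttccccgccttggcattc
The single Casr word lies 64 bases before the RefSeq start, within the longer form. The Ffar4 words lie 165 and 67 bases before it, on opposite strands. A match describes the letters of the window and is not evidence of binding.

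Avpr1b, Sstr3 and Casr made up nearly all of the receptor RNA. Levels were compared between genes per length, as CPM per kb of exon. Avpr1b stood at 21.6 ± 1.85 (SD over 8 libraries), Sstr3 at 7.67 ± 0.472 and Casr at 2.20 ± 0.342 CPM per kb, and their ranges did not overlap. Avpr1b took between 64.2% and 68.7% of the summed level per kb of the 10 receptors in a library, Sstr3 between 22.3% and 25.8%, and Casr between 5.08% and 7.67%. Against the 16333 genes that had enough counts to be tested, the mean level per kb of Avpr1b was above that of 83.8%, Sstr3 above 62.2% and Casr above 38.8%.

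The next 5 receptors were scarce. Sstr2 stood at 0.239 ± 0.0602 CPM per kb, Ffar4 at 0.176 ± 0.109, Ffar1 at 0.163 ± 0.0370, Gipr at 0.0793 ± 0.0237 and Adra2a at 0.0377 ± 0.0102 CPM per kb. Each range over the libraries overlapped that of the next gene in this order, so neighbours are not resolved, whereas the range of Sstr2 lay above those of Gipr and Adra2a and that of Ffar1 above that of Adra2a. Glp1r and Gcgr were at the detection limit, with 3 counts each over all 8 libraries. The limit that a count of 0 allows (3 counts in a library, counting error only) was 0.0468 to 0.0637 CPM. With a floor of 10 counts, 5 receptors (Avpr1b, Sstr3, Casr, Sstr2 and Ffar1) were detected in every library. Gipr reached the floor in 6 libraries, Ffar4 in 4, Adra2a in 3, and Gcgr and Glp1r in 0.

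**Figure D1:**
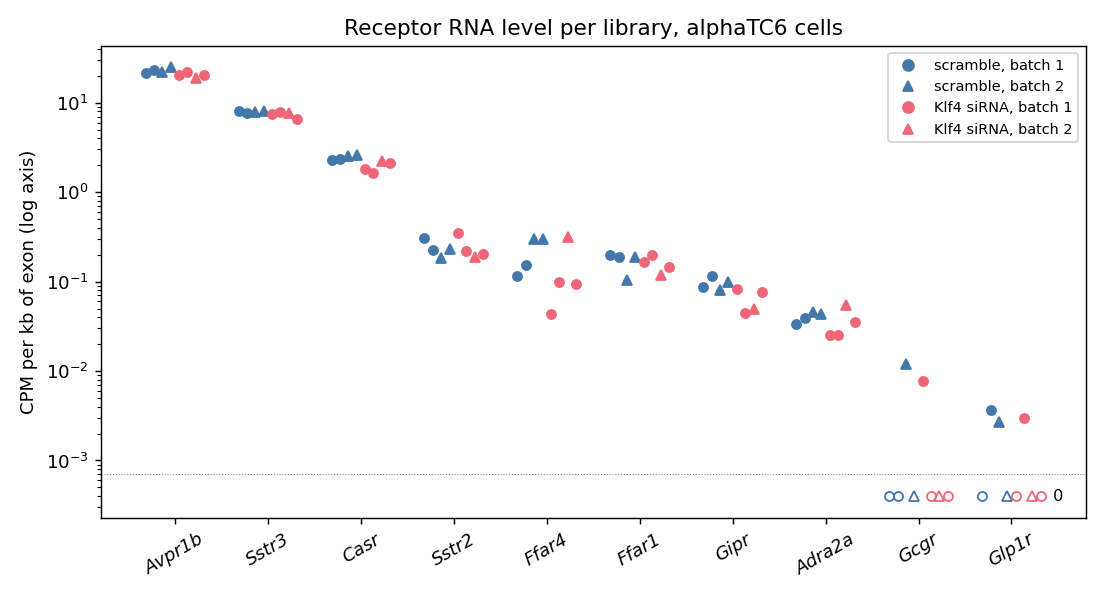
Level of each receptor in each of the 8 libraries, as CPM per kb of exon on a log axis. Colours mark treatment and shapes mark batch; open symbols under the dotted line are libraries with 0 counts. Avpr1b, Sstr3 and Casr stand apart from the rest, and Gcgr and Glp1r are at 0 in most libraries.

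Of the 10 receptors, 8 passed the filter on low counts (0.183 CPM in at least 4 libraries) and were tested by edgeR for treatment and for batch. These fits ran over 16333 genes, and p-values were adjusted over all genes tested in a fit. By treatment, 1 of the 8 tested receptors, Casr, passed an adjusted p of 0.05, and it was lower after Klf4 siRNA; of all tested genes 11.7% passed in either direction and 6.81% in that direction. All 8 log2 estimates were negative, as were 8161 of the 16333 of all genes, but the 95% intervals of 5 (Sstr3, Sstr2, Ffar1, Ffar4 and Adra2a) included 0. The estimate of Sstr2 turned positive without the batch term and without scramble replicate 1, and that of Adra2a without scramble replicate 2 or Klf4 siRNA replicate 1 or 2. The median of the 8 was -0.19, against 0.000043 over all genes tested. Gipr passed the filter through 4 scramble and 2 Klf4 siRNA libraries, and Ffar4 and Adra2a each through 3 and 1. For these the filter favoured negative estimates, so their part in the 8 and in the median is no support.

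**Figure D2:**
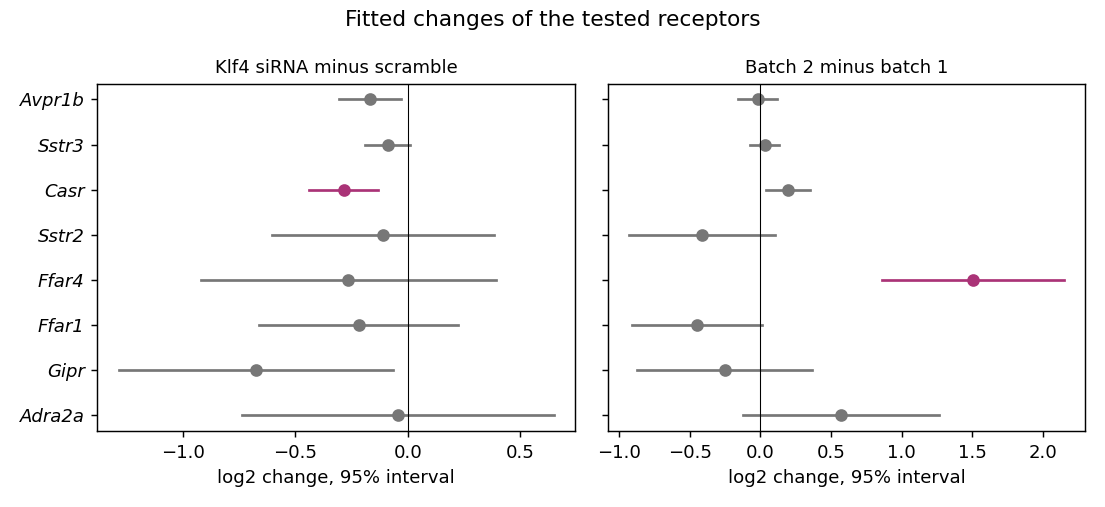
Fitted log2 changes of the 8 tested receptors with 95% intervals, for Klf4 siRNA minus scramble on the left and batch 2 minus batch 1 on the right. Purple marks an edgeR adjusted p under 0.05: Casr at -0.28 on the left and Ffar4 at 1.50 on the right.

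Casr, the receptor for extracellular calcium, fell after Klf4 siRNA. Casr (ENSMUSG00000051980, chromosome 16, 36493696 to 36562141 of GRCm38, minus strand) had 10.9, 11.0, 11.9 and 12.4 CPM in scramble replicates 1 to 4. In Klf4 siRNA replicates 1 to 4 it had 8.47, 7.66, 10.5 and 10.1 CPM. Every Klf4 siRNA library lay below every scramble library, as in 5.55% of all tested genes. Within batch 1 the 3 Klf4 siRNA libraries lay below both controls, with a log2 difference of -0.33, and within batch 2 the single one did so, with a log2 difference of -0.22. The fitted log2 change was -0.28, with a standard error of 0.07 and a 95% interval from -0.44 to -0.13 (edgeR adjusted p = 0.015). The level left was 82.1% of that in controls. This size was larger than that of 89.8% of tested genes. These values rest on 417 to 763 counts per library. The adjusted p became 0.081 when scramble replicate 1 was dropped, 0.085 when scramble replicate 2 was, 0.061 in batch 1 alone and 0.151 without the batch term, at log2 changes from -0.27 to -0.33. Casr was also higher in batch 2 by 0.20 on the log2 scale, which did not pass the threshold (edgeR adjusted p = 0.052) but did without Klf4 siRNA replicate 4 (0.0049), with that library placed in batch 2 (0.024), with no filter (0.022) and at a mean of at least 1 CPM (0.049).

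Cell type markers also moved with treatment. Of the 7 tested alpha cell markers 3 passed: Gcg and Slc7a2 were lower, by log2 changes of -0.18 and -0.13, and Slc38a5 was higher, by 0.14 (edgeR adjusted p = 0.0095, 0.0080 and 0.0066), beside the 11.7% of all tested genes that passed. Of the 3 tested beta cell markers 1 passed, Nkx6-1, with a log2 change of -0.12 (edgeR adjusted p = 0.044), and all 3 estimates were negative. The summed level was 3953 to 11879 CPM in scramble and 3764 to 10607 CPM in Klf4 siRNA libraries for the alpha cell list, and 214 to 295 against 193 to 256 CPM for the beta cell list. The part of these in the Casr difference was not tested.

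Avpr1b, the vasopressin receptor of pituitary corticotrophs and alpha cells, was the most abundant of the 10 and did not pass the treatment test. It (ENSMUSG00000026432, chromosome 1, 131599239 to 131612000, plus strand) had 85.5, 93.6, 88.0 and 99.9 CPM in scramble replicates 1 to 4. After Klf4 siRNA, replicates 1 to 4 had 81.3, 88.0, 76.0 and 82.3 CPM. The groups overlapped at Klf4 siRNA replicate 2. The log2 change was -0.17, with a standard error of 0.06 and an interval from -0.30 to -0.03 (edgeR adjusted p = 0.120). It was -0.09 within batch 1 and -0.30 within batch 2, and -0.093 in the fit without Klf4 siRNA replicate 3. Dropping a single library (scramble replicate 1 or 4, or Klf4 siRNA replicate 2) brought the adjusted p to 0.022, 0.039 and 0.044. It was 0.011 with the DESeq2 Wald test, 4.11e-05 with no filter and 0.043 with a replicate block in place of batch (edgeR, log2 change -0.16). The batch change was -0.02, with an interval from -0.16 to 0.12.

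Sstr3, a somatostatin receptor, was the next by level and also did not pass. Sstr3 (ENSMUSG00000044933, chromosome 15, 78537008 to 78544685, minus strand) had 34.5, 33.5, 33.7 and 35.4 CPM in scramble replicates 1 to 4. In Klf4 siRNA replicates 1 to 4 it had 32.4, 34.2, 32.8 and 28.6 CPM. Klf4 siRNA replicate 4 was the lowest library, and the groups overlapped. The log2 change was -0.09 (standard error 0.05, interval -0.19 to 0.01, edgeR adjusted p = 0.275), and the batch change was 0.03 (adjusted p = 0.668). Without Klf4 siRNA replicate 4 the treatment change was -0.046.

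**Figure D3:**
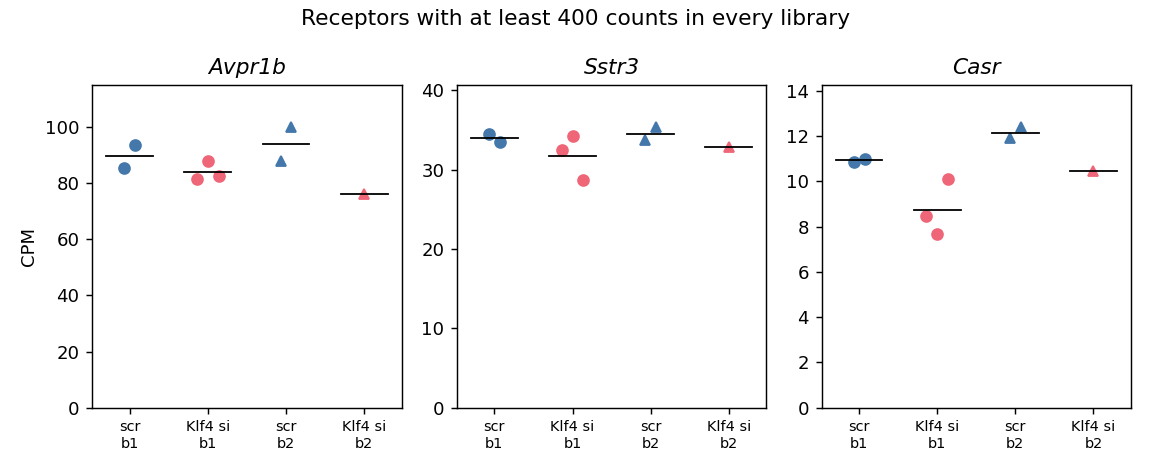
CPM of Avpr1b, Sstr3 and Casr in each library, by treatment (scr, scramble; Klf4 si, Klf4 siRNA) and batch (b1, b2). Points are libraries, bars are means, and every axis starts at 0. Casr after Klf4 siRNA lies below the controls of its own batch in both batches.

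Sstr2, the other somatostatin receptor examined, had between 21 and 37 counts per library. Sstr2 (ENSMUSG00000047904, chromosome 11, 113619342 to 113626028, plus strand) lies within Slc39a11 on the opposite strand, outside its exons, and whether the counting used strand is not given in the sources used here. Its mean was 0.511 ± 0.113 CPM in controls and 0.513 ± 0.162 CPM after Klf4 siRNA (SD, n = 4 each). The log2 change had an interval from -0.60 to 0.38 (edgeR adjusted p = 0.844). Of the remaining family members, Sstr5 had at most 4 counts in a library, and Sstr1 and Sstr4 had 0 counts in all of them. Per kb, Sstr3 was thus the leading somatostatin receptor, and its range did not overlap that of Sstr2.

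Gipr, the receptor for the incretin GIP, had the largest point estimate of the 8 in the main fit but few counts. That of Ffar4 was larger without the batch term (-0.67 against -0.60) and with a replicate block (-0.70 against -0.61). It was also larger with Klf4 siRNA replicate 4 placed in batch 2 (-0.65 against -0.61) and without Klf4 siRNA replicate 3 (-0.71 against -0.59). Gipr (ENSMUSG00000030406, chromosome 7, 19156061 to 19166127, minus strand) had 17, 19, 18 and 20 counts in scramble replicates 1 to 4. After Klf4 siRNA the counts were 14, 9, 9 and 14, in the same order. In CPM these are 0.304, 0.404, 0.281 and 0.345 against 0.284, 0.156, 0.171 and 0.264. The groups overlapped in CPM between scramble replicate 3 and Klf4 siRNA replicate 1. Within each batch, the Klf4 siRNA libraries lay below the controls for Gipr and for Casr, 2 of the 8 tested receptors, where 13% of all tested genes did so. The log2 change of Gipr was -0.67, with a standard error of 0.29 and an interval from -1.28 to -0.06 (edgeR adjusted p = 0.159), and it did not pass in any of the 17 alternatives that gave an adjusted p (0.141 to 0.417). Gipr had passed the filter through all 4 scramble but 2 Klf4 siRNA libraries, so its place among the 2 of 8 is no support.

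Glp1r and Gcgr, the receptors for GLP-1 and for glucagon, were not measurable. Glp1r had 1 count in scramble replicates 2 and 3 and in Klf4 siRNA replicate 2, and 0 in the others. Gcgr had 2 counts in scramble replicate 3, 1 in Klf4 siRNA replicate 1, and 0 in the others. No fold is given for them. Gcg, which encodes the ligands of both, was meanwhile present at 1065 to 8913 CPM. Among relatives in the glucagon and secretin receptor family, Vipr1 had 87 to 122 counts per library and a level of 0.342 CPM per kb, above the 0.0793 of Gipr with no overlap of their ranges. Vipr2 and Adcyap1r1, at 0.133 and 0.0822 CPM per kb, overlapped the range of Gipr. Glp2r had 0 counts.

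Ffar4, a receptor for long-chain fatty acids, was the receptor that differed between batches. Of the 8 tested receptors, it alone passed the batch test at an adjusted p of 0.05, higher in batch 2, where 32.7% of all tested genes passed and 16.8% were higher. Ffar4 (ENSMUSG00000054200, chromosome 19, 38097071 to 38114263, plus strand) had 9, 10, 3, 8 and 7 counts in the batch 1 libraries (scramble replicates 1 and 2, Klf4 siRNA replicates 1, 2 and 4). In batch 2 it had 27 and 24 counts in scramble replicates 3 and 4 and 23 in Klf4 siRNA replicate 3. All 3 libraries of batch 2 lay above all 5 of batch 1, as for 15.8% of all tested genes. Mean levels were 0.141 ± 0.0548 CPM in batch 1 (SD, n = 5) and 0.424 ± 0.0113 CPM in batch 2 (SD, n = 3). The fitted change was 2.83-fold, or 1.50 as a log2 value (standard error 0.31), with an interval from 0.86 to 2.15 (edgeR adjusted p = 0.00073). Ffar4 had passed the filter through the 3 libraries of batch 2, where it was high, and 1 of batch 1, so its share among the tested receptors is no support; with no filter its batch change was also 1.50 (edgeR adjusted p = 7.96e-05 over 31278 genes). By treatment its log2 change was -0.26 (interval -0.92 to 0.39, adjusted p = 0.687), at -0.64 within batch 1 and 0.06 within batch 2. Dropping scramble replicate 2 gave -0.12, dropping Klf4 siRNA replicate 1 gave -0.14, dropping Klf4 siRNA replicate 3 gave -0.71, and a fit with no batch term gave -0.67.

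Other values moved with batch as well. The summed level of the 8 alpha cell markers was 3764 to 3999 CPM in batch 1 and 10607 to 11879 CPM in batch 2, a difference that came mostly from Gcg. Of the 7 tested, 5 passed by batch, with Gcg, Ttr, Slc38a5 and Irx1 higher in batch 2 and Pou3f4 lower, beside 32.7% of all tested genes. The 8 beta cell markers summed to 193 to 226 CPM in batch 1 and 256 to 295 CPM in batch 2, and 2 of the 3 tested, Nkx6-1 and G6pc2, passed, both higher in batch 2; Ins1, Ins2 and Pdx1 were at 0 in both. The part of these in the Ffar4 difference was not tested.

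Ffar1, the main long-chain fatty acid receptor of beta cells, had 26 to 48 counts per library. Ffar1 (ENSMUSG00000044453, chromosome 7, 30857390 to 30861564, minus strand) had 0.710 ± 0.183 CPM in controls and 0.654 ± 0.142 CPM after Klf4 siRNA (SD, n = 4 each), a log2 change of -0.22 (interval -0.66 to 0.22, edgeR adjusted p = 0.596) that was -0.096 without scramble replicate 4 and -0.11 without the batch term. Its batch change was -0.45 (interval -0.91 to 0.01, edgeR adjusted p = 0.132). It was -0.70 and passed without scramble replicate 4 (edgeR adjusted p = 0.028), and was -0.25 without scramble replicate 3 (0.448). Ffar2, a receptor for short-chain fatty acids, was at 0.229 CPM per kb, overlapping Ffar1 and Ffar4, and was lower in batch 2 (log2 change -1.18, edgeR adjusted p = 0.00052). Ffar4 and Ffar2 thus differed between batches in opposite directions. Ffar3 had at most 4 counts in a library.

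Adra2a, the alpha-2A adrenergic receptor, had 9, 9, 14 and 12 counts in scramble replicates 1 to 4. After Klf4 siRNA the counts were 6, 7, 14 and 9, in the same order. Adra2a (ENSMUSG00000033717) lies on chromosome 19, 54044151 to 54048982, plus strand. The log2 change by treatment was -0.04 (interval -0.74 to 0.65, edgeR adjusted p = 0.972). The 3 libraries of batch 2 lay above the 5 of batch 1, as for 15.8% of all tested genes, at 0.230 ± 0.0311 (SD, n = 3) against 0.153 ± 0.0308 CPM (SD, n = 5). The batch change of 0.57 did not pass the threshold (interval -0.12 to 1.26, edgeR adjusted p = 0.207) and was 0.28 without Klf4 siRNA replicate 3. Adra2a had passed the filter through the 3 libraries of batch 2, where it was higher, and 1 of batch 1, so its separation beside that 15.8% is no support. Adra2b had at most 2 counts in a library, and Adra2c had 0.

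**Figure D4:**
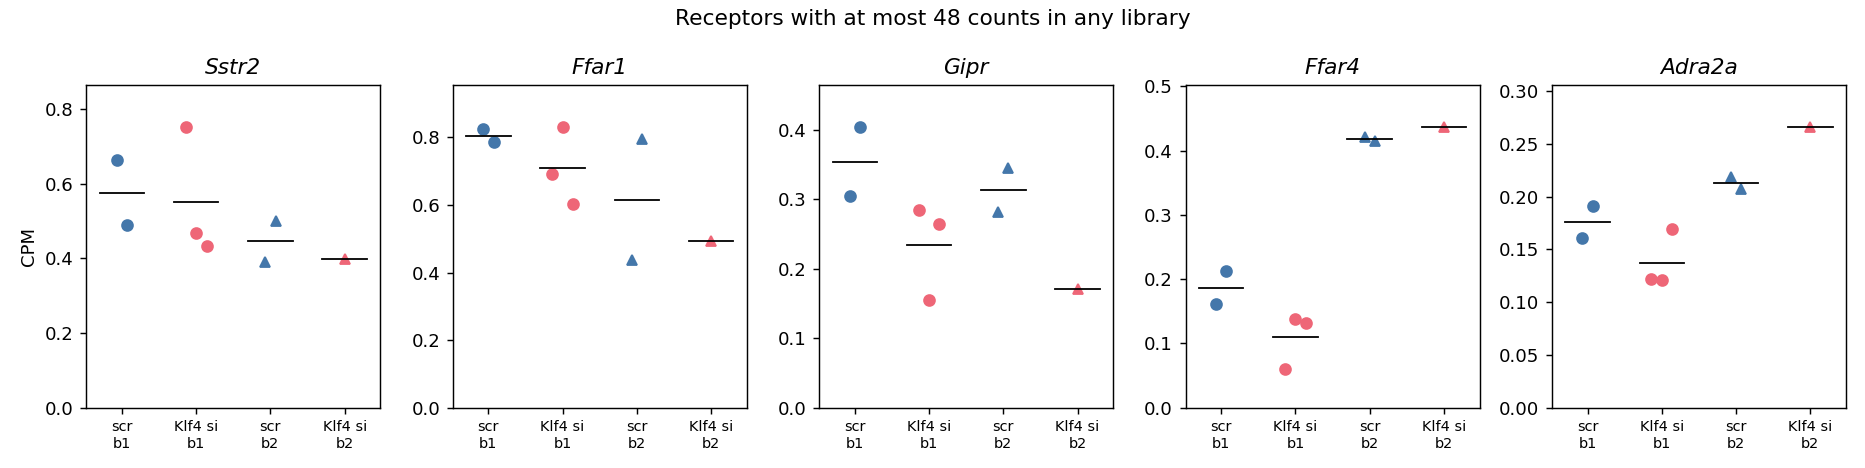
CPM of the 5 scarce receptors in each library, by treatment (scr, scramble; Klf4 si, Klf4 siRNA) and batch (b1, b2). Points are libraries, bars are means, and every axis starts at 0. Ffar4 is higher in all 3 libraries of batch 2, and Gipr after Klf4 siRNA lies below the controls of its own batch in both batches.

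A difference between batches in the response to Klf4 siRNA was tested next. In a separate edgeR fit, the interaction of batch and treatment passed for 0 of the 8 receptors and for 0% of all 16333 genes (540 genes had an unadjusted p under 0.05). DESeq2, limma-voom and the edgeR likelihood ratio test also gave 0 over all genes, whereas 17 genes passed with no filter and 13 without scramble replicate 3, none of them among the 8. Among the 8, Avpr1b had the smallest unadjusted interaction p (edgeR, 0.046, adjusted 0.999), at a difference of -0.21. Batch 2 held a single Klf4 siRNA library, so this test is weak, and the interval of the interaction of Gipr ran from -1.64 to 1.11.

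A list of 64 other hormone, transmitter and nutrient receptors was read beside the 10. Of these, 22 had at least 10 counts in every library, 9 had 0 counts in all, and 25 were tested. By treatment 2 of the 25 passed, 1 higher and 1 lower, beside the 11.7% of all tested genes, and the median log2 change was 0.02. Gpr119, a receptor for lipid amides that acts through Gs, fell from 11.1 ± 0.216 to 8.27 ± 0.761 CPM (SD, n = 4 each), with no overlap of the groups (log2 change -0.43, standard error 0.07, edgeR adjusted p = 0.00024). Gabbr1, a subunit of the GABA-B receptor, rose by 0.32 on the log2 scale (standard error 0.04, edgeR adjusted p = 1.47e-05). Its level was 22.4 and 23.6 CPM in scramble and 28.2 to 30.2 CPM in Klf4 siRNA libraries of batch 1, and 32.1 and 31.0 against 38.6 CPM in batch 2. Gabbr1 did not pass without the batch term (edgeR adjusted p = 0.591), with Klf4 siRNA replicate 4 placed in batch 2 (0.228) or with a replicate block (0.210). In the first 2 of these its log2 change was smaller, at 0.21 and 0.22. Gpr119 passed in all 19 alternatives.

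The 5 other receptors with the most CPM, which do not correct for length, were Oxtr, Calcr, Npy1r, Gabbr1 and Gpr119. Oxtr, the oxytocin receptor and a close relative of Avpr1b, was 1.89-fold higher in batch 2 (edgeR adjusted p = 0.00012). In batch 1 it was at 18.7 to 23.1 CPM per kb, overlapping the 20.2 to 23.3 of Avpr1b, and in batch 2 at 35.2 to 38.1, above the 18.9 to 24.8 of Avpr1b. Avpr1a and Avpr2 had at most 4 and 2 counts in a library. Calcr, the calcitonin receptor, and Npy1r, a receptor for neuropeptide Y, changed places between batches. Calcr was at 6.06 to 7.44 CPM per kb in batch 1, below the 10.8 to 11.4 of Npy1r, and at 20.5 to 22.2 in batch 2, above the 9.42 to 9.91 of Npy1r.

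Downstream partners of these receptors were largely present. Of 36 listed G protein subunits, receptor kinases, arrestins, activity-modifying proteins, RGS proteins, phospholipases and inositol trisphosphate receptors, 31 were tested. By treatment 3 passed, all lower, a share near the 6.81% lower and 11.7% in all of the tested genes, with a median of -0.03 over the 31. Gnb5, a G protein beta subunit that pairs with RGS proteins, fell by 0.19 on the log2 scale (standard error 0.05, edgeR adjusted p = 0.0075). Grk6, a receptor kinase, fell by 0.09, and Rgs2, which dampens Gq signals, fell by 0.20 (edgeR adjusted p = 0.038 and 0.044). The calls of Grk6 and Rgs2 were lost in 13 and 11 of the 19 alternatives, with an adjusted p of up to 0.395 and 0.262. That of Gnb5 was lost without scramble replicate 2 (0.093) and without the batch term (0.069). Without the batch term the log2 changes of Gnb5, Grk6 and Rgs2 were -0.21, -0.07 and -0.21. The alpha subunits Gnas (Gs), Gnao1 (Go), Gna11 and Gnaq (both Gq class) and Gnai2 (Gi) averaged 470.5, 63.7, 72.2, 19.3 and 65.6 CPM per kb, and none of them passed by treatment.

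For each receptor above 1 CPM, the genes most alike in pattern were sought among 10388 others with at least 5 CPM, by Pearson's r of log2 CPM over the 8 libraries. They were Isl1 (0.99) and Fiz1 (0.98) for Casr, Creld1 (0.98) and Hadha (0.96) for Avpr1b, and Ttc32 (0.99) and Acad12 (0.97) for Sstr3. With the batch means taken out, these values were between 0.96 and 0.99. All come from the same 8 libraries and are the highest of very many, so they are given as a description. None of the 6 genes passed the treatment test; Isl1, an islet transcription factor, had a log2 change of -0.08 (edgeR adjusted p = 0.107).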

How the data were processed

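The authors deposited raw counts per gene in whole numbers, for 8 libraries, and the table held 0 further columns. FastQC, STAR, featureCounts, DESeq2 and the mm10 build are listed without roles or versions in the submitters' processing notes; strand use is not given in the sources used here. All 55536 identifiers and symbols matched GENCODE M21 (GRCm38), the source of positions and exon lengths. Without molecular identifiers, counts include PCR duplicates, and floors cover counting error only. Genes were kept with filterByExpr on treatment, libraries were scaled with TMM, and batch and treatment were fitted with robust quasi-likelihood in edgeR 4.0.16 (R 4.3.3; 5 residual degrees of freedom), as the design text names edgeR with correction for batch. P-values are two-sided, with Benjamini-Hochberg adjustment over all tested genes and a threshold of 0.05. A standard error is the absolute log2 change over the square root of F. Changes within a batch are differences of mean log2 CPM (prior count 2). DESeq2 1.42.0 and limma 3.58.1 served as alternatives, with other filters, scalings, batch terms and each library left out.

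The members and lists were chosen with earlier results of these data known. The genes named were Klf4, the 10 receptors, from each companion list the 4 past the threshold with the smallest adjusted p by treatment and the 4 with the largest batch change, the 5 most abundant other receptors, and 2 most similar genes per receptor above 1 CPM. Family relatives, the G protein alpha subunits and the cell markers were named beside these. Some listed alpha cell markers are not reported here. Of 3 markers for PP and epsilon cells, none had 10 counts in every library, and of 7 for exocrine, duct, blood, vessel and stromal cells, 2 did (Cela1 and Pecam1).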

Additional observations from a re-analysis of the deposited data

Results flagged for a closer look

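The levels of Klf4 and the 10 receptors were examined for a library far from the other 3 of its treatment, as 22 groups of 4. A gap to the nearest library above Dixon's 95% critical value, as a share of the range, was found in 4, where chance gives about 1 in 20 groups. Scramble replicate 3 was low for Ffar1, at 0.437 CPM against 0.786 in the nearest control, a gap of 0.903 of the range. The other 3 cases are receptors with 0 counts in 3 of the 4 libraries, so that the gap was 1 by construction: Gcgr in scramble replicate 3 and in Klf4 siRNA replicate 1, and Glp1r in Klf4 siRNA replicate 2.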

How the results depend on the processing

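The number of receptors detected in every library was 5 with a floor of 10 counts, 8 with 1 or with 3 counts, and 3 with 50 counts; it was 5 with any library left out. Receptors called by treatment, 1 in all (Casr), were 0 without the batch term and in batch 1 alone, and 2 with no filter and with the DESeq2 Wald test, and 0 to 2 with a library left out. Receptors called by batch were 1, and 2 with Klf4 siRNA replicate 4 placed in batch 2 and with no filter, where Casr was added; at a mean of at least 1 CPM the 1 call was Casr, as Ffar4 was not tested; leaving out a library gave 1 to 2 (Casr added without Klf4 siRNA replicate 4, Ffar1 without scramble replicate 4). Other receptors called by treatment were 2, against 1 without the batch term. Those called by batch were 14, against 7 with replicate 4 placed in batch 2 and 9 at a mean of at least 1 CPM. Partners called by treatment were 3, against 0 without the batch term and 1 with replicate 4 placed in batch 2, with library size alone or with the likelihood ratio test, and 0 to 2 with a library left out. Partners called by batch were 18, against 10 with replicate 4 placed in batch 2. The cause was not tested.

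Same-numbered libraries were not taken as pairs, though whether they are was not settled. Deviations from the treatment means correlated at 0.49, 0.42, 0.72 and -0.34 for numbers 1 to 4. With the batch means taken out these became -0.0005, -0.04, -0.30 and 0.12, but that step makes deviations within a batch balance, so they cannot decide it. By chi-square per degree of freedom, scramble replicates 1, 2 and 3 each had their same-numbered library as nearest (10.4, 18.3 and 18.3). For scramble replicate 4 it was number 3 of the other treatment (47.1), its own number being in the other batch. Klf4 siRNA replicates 1, 2 and 4 each had a library of their own treatment as nearest (10.2, 13.2 and 10.2). With a replicate block in place of batch, 1220 genes were called where 1909 were; 2 receptors (Casr and Avpr1b), 1 other receptor and 1 partner were among them.

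By treatment, Sstr2 was 0.0037 without the batch term and ran from -0.29 to 0.016 with a library left out (positive without scramble replicate 1). Adra2a ran from -0.34 to 0.085 with a library left out (0.085, 0.017 and 0.032 without scramble replicate 2, Klf4 siRNA replicate 1 or Klf4 siRNA replicate 2). By batch, Sstr3 was -0.047 with replicate 4 placed in batch 2 and -0.0059 with library size alone, and Avpr1b ran from -0.087 to 0.070 with a library left out (0.0016 and 0.070 without scramble replicate 3 or Klf4 siRNA replicate 3). None of these passed. The batch call of Ffar4 held in all 15 alternatives that tested it, with log2 changes from 1.17 to 1.69. Of the 10 receptors, 7 had under 50 counts in every library; the treatment intervals of the 5 tested among them reached from -1.28 to 0.65, against -0.44 to 0.01 for the 3 others.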

Other observations

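Companion genes were also read by batch. Of the 25 tested other receptors, 14 passed the batch test (9 higher and 5 lower in batch 2), and of the 31 tested signalling partners 18 did (8 higher, 10 lower), beside 32.7% of all tested genes. Cckbr, a receptor for cholecystokinin and gastrin, was at 0.330 ± 0.111 CPM in batch 1 (SD, n = 5) and 3.85 ± 0.0881 CPM in batch 2 (SD, n = 3), an 11.6-fold difference in the fit (edgeR adjusted p = 1.07e-12). Cnr1, a cannabinoid receptor, was 6.93-fold and Calcr 3.12-fold higher in batch 2 (edgeR adjusted p = 2.07e-12 and 9.36e-11). Adora1, an adenosine receptor, was 3.57-fold lower there (edgeR adjusted p = 0.00090), at 0.424 against 0.112 CPM. Adora1 had passed the filter through the 5 libraries of batch 1 and 0 of batch 2; the log2 change was -1.84 with the filter and without it (edgeR adjusted p = 6.46e-06 without).

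Among the signalling partners, Gnai1, a Gi alpha subunit, was at 0.285 ± 0.0680 CPM in batch 1 and 2.58 ± 0.276 CPM in batch 2, 9.22-fold higher in the fit (edgeR adjusted p = 1.11e-11). Itpr3 and Itpr2, calcium release channels, were 2.23-fold and 1.37-fold higher in batch 2, and Ramp2, which partners calcitonin-family receptors, was 1.80-fold lower (edgeR adjusted p = 4.10e-09, 2.04e-05 and 6.23e-05). In none of these 8 genes did the ranges of the batches overlap, but they were picked for large batch changes, so this is no support. Of all tested genes, 15.8% had every batch 2 library above every batch 1 library. Klf4 siRNA replicate 4 is labelled batch 1, while the scramble library of that number is labelled batch 2. On the first principal component, scaled to 1 at its largest value, it stood at -0.565, between the -0.649 and -0.542 of the other batch 1 libraries. With it placed in batch 2, the calls of 5 genes were lost, at log2 changes of 2.34 for Cnr1 (2.79 as labelled), 1.37 for Calcr (1.64), -0.69 for Adora1 (-1.84), -0.60 for Ramp2 (-0.85) and 0.29 for Itpr2 (0.46).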
